A study of Homo sapiens with 15 samples.

Results

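The choice between poly(A) sites was compared directly between HEK293T cells carrying a short hairpin RNA against PCBP2 (shPCBP2) and HEK293T cells carrying one against ZNF384 (shZNF384). HEK293T is a human embryonic kidney cell line. The comparison used 4 of the 15 sequencing libraries of the study, 2 per knockdown, and every gene with a value in all 4. These were 12382 of 13056 genes, or 94.8%, and the other 674 genes lacked a value in at least 1 of the 4 libraries. The remaining 11 libraries were 3 with a control hairpin (shControl), whose genotype is labelled WT, and 2 each of shHDAC1, shPABPN1, shSF3B4 and shU2AF2. All groups were the same cell line, and the hairpin was the only labelled difference between the knockdowns.

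The measured quantity was PDUI, an index of distal poly(A) site usage, given for 1 transcript per gene. It is a fraction in which 1 stands for transcripts that all end at the distal site, and a value near 0 for transcripts that mostly end at the proximal site. The table holds no read counts, so the depth of the libraries is unknown and no counting interval is given. The labels name both a nuclear RNA kit and a total RNA kit, and the library names of shControl carry the suffix "nuc", which the knockdown names lack. What that suffix marks is not stated, so it cannot be told apart from the hairpin in any comparison with shControl, while the direct difference between the 2 knockdowns takes no value from shControl, whose libraries enter only the estimate of the spread. The labels do not say whether replicates were separate cultures, so p-values measure only the spread between libraries. Knockdown strength is not a quantity that PDUI gives.

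Most human genes carry more than 1 poly(A) site, and the site at which a transcript is cut sets the length of its 3' UTR and with it the binding sites available to microRNAs and RNA-binding proteins. Cleavage is directed by a hexamer, most often AAUAAA, and by flanking U-rich and GU-rich elements. PCBP2 is a KH-domain protein that binds C-rich stretches of RNA and acts in messenger RNA stability, translation and splicing. ZNF384 is a C2H2 zinc finger protein that binds A-rich stretches of DNA and is known as a transcription factor. The study's design text names PCBP2 among regulators of alternative polyadenylation, and does not mention ZNF384, which only the labels of its samples give. The direct comparison asks how alike the PDUI profiles of the 2 knockdowns are and which genes separate them.

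The profiles of the 2 knockdowns differed by little more than the libraries within each. Over 12382 genes, the mean absolute difference between libraries was 0.0723 within shPCBP2 and 0.0661 within shZNF384, and 0.0708 to 0.0733 between the groups. The difference between groups exceeded that within groups by 0.00279, and an exact one-sided permutation test over the 3 ways of pairing 4 libraries gave p = 0.333, the smallest it allows. Across genes, the 2 group means correlated at r = 0.964, where genes are not independent replicates and differ widely in level.

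Mean PDUI over these genes was 0.571 and 0.579 in the shPCBP2 libraries and 0.583 and 0.590 in the shZNF384 libraries. Both shZNF384 libraries were thus higher. The difference, shPCBP2 minus shZNF384, was −0.0115, and an exact two-sided permutation test gave p = 0.333, the smallest that 6 splits of 4 libraries can give. The median difference of single genes was −0.005 and the median absolute difference 0.03. The absolute difference of the group means stayed under 0.1 in 10315 genes (83.3%) and reached 0.2 or more in 481 (3.88%).

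**Figure D1:**
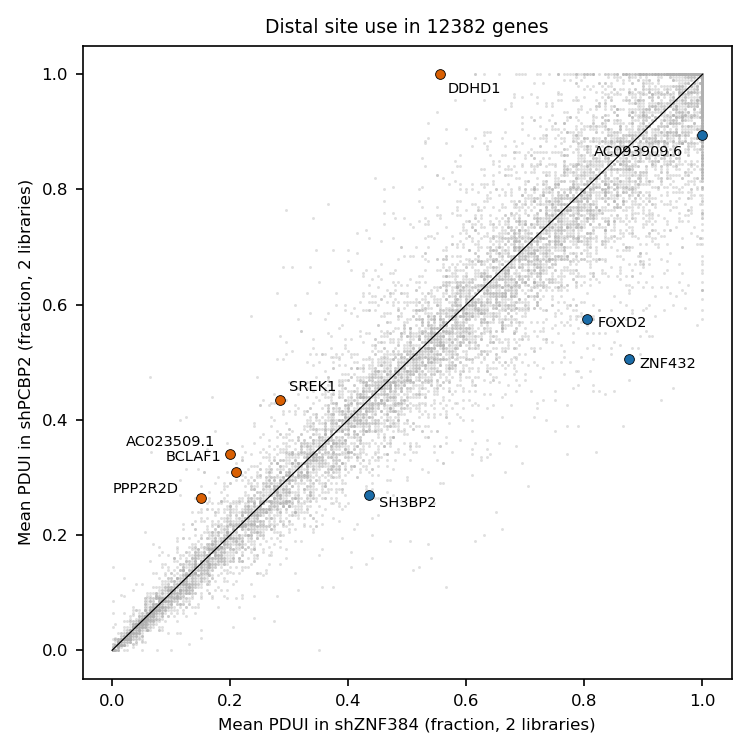
Mean PDUI of each gene in shPCBP2 (vertical axis, fraction, 2 libraries) against that in shZNF384 (horizontal axis, fraction, 2 libraries) for 12382 genes, with the 9 genes that differed in the limma test marked. The points lie along the diagonal (r = 0.964), and the 9 marked genes are off it by 0.1 to 0.445.

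The differences were tested with limma, in 1 fit over all 15 libraries with 1 mean per group. A gene was called at a Benjamini-Hochberg adjusted p under 0.05. Of 12382 genes, 9 were called (0.0727%), 5 with more distal site use in shPCBP2 (0.0404%) and 4 with more in shZNF384 (0.0323%). At an unadjusted p under 0.05 there were 857 genes (6.92%), 278 higher in shPCBP2 (2.25%) and 579 higher in shZNF384 (4.68%). With each library centred on its median, that split turned to 328 and 302, and of the 9 calls DDHD1 remained. All 9 called genes kept their direction under every alternative tried, which says little about their stability. Their libraries did not overlap between the groups, so leaving a library out could not reverse a sign. Most other settings left the difference itself unchanged.

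A missed threshold does not show likeness, so the 95% interval of each difference was also read. It lay wholly between −0.1 and 0.1 in 3549 genes (28.7%). This share followed the level of the gene. It was 93.3% in the 954 genes with mean PDUI under 0.1, where the median standard error was 0.00888, and 1.88% in the 2606 genes between 0.7 and 0.9, where it was 0.0838. For most genes of intermediate or high PDUI, a difference of 0.1 could therefore not be bounded with 2 libraries a group.

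On values as deposited, shPCBP2 and shZNF384 had the fewest called genes among the 15 pairs of knockdowns. The next pairs were shHDAC1 with shPCBP2 at 171 genes (1.40%), shPABPN1 with shPCBP2 at 205 and shHDAC1 with shZNF384 at 254. The most, 1170 genes (9.82%), separated shPABPN1 from shSF3B4. At an unadjusted p under 0.05, the other 14 pairs ranged from 11.5% to 26.0% of genes, against 6.92% here. Pairs share groups and are not independent, and no test was made between their counts. Of the genes called against shPCBP2 and shZNF384, shHDAC1 was lower in 153 of 171 and 245 of 254. The 15 counts were not repeated with centred libraries, so whether their order follows the level of the libraries was not tested.

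**Figure D2:**
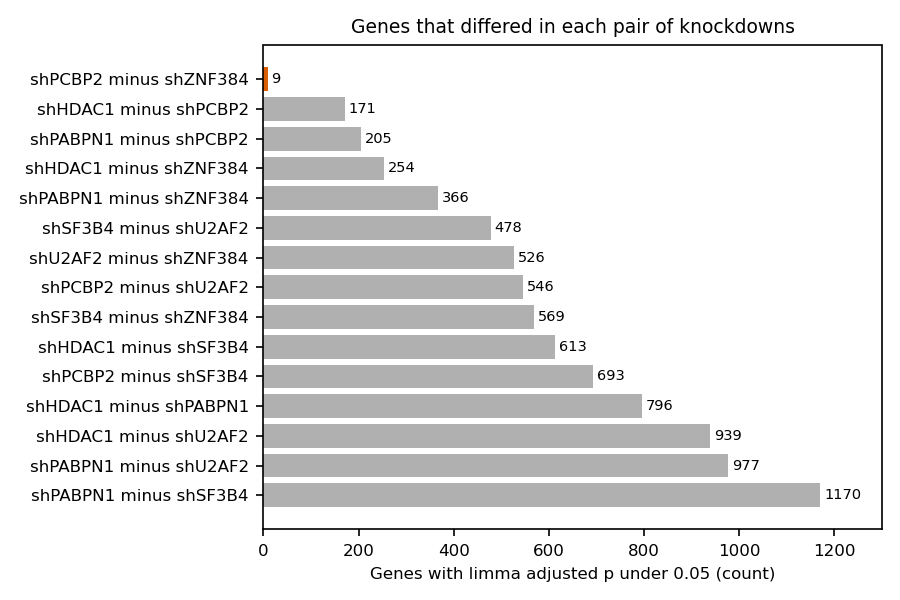
Number of genes with a limma adjusted p under 0.05 (horizontal axis, count) in each of the 15 pairs of knockdowns (vertical axis). On values as deposited, the pair shPCBP2 and shZNF384 stands at 9 genes, and the other 14 pairs lie between 171 and 1170.

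The 5 genes with more distal site use in shPCBP2 were DDHD1, SREK1, AC023509.1, PPP2R2D and BCLAF1. The 4 with more in shZNF384 were ZNF432, FOXD2, SH3BP2 and AC093909.6. In all 9 the 2 libraries of one knockdown lay beyond both of the other, which held for 28.5% of all genes tested (10.3% with shPCBP2 above and 18.2% with shPCBP2 below). Leaving out shPCBP2 replicate 1, shPCBP2 replicate 2, shZNF384 replicate 1 or shZNF384 replicate 2 gave 23, 20, 18 and 8 called genes. DDHD1, SREK1, PPP2R2D and SH3BP2 were called in each of these 4 fits, AC093909.6 in 3, AC023509.1, BCLAF1 and ZNF432 in 1 each and FOXD2 in none. With only the 4 libraries in the fit no gene was called, with 1052 at an unadjusted p under 0.05, so the 9 calls rest on the spread estimated over all 7 groups.

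**Figure D3:**
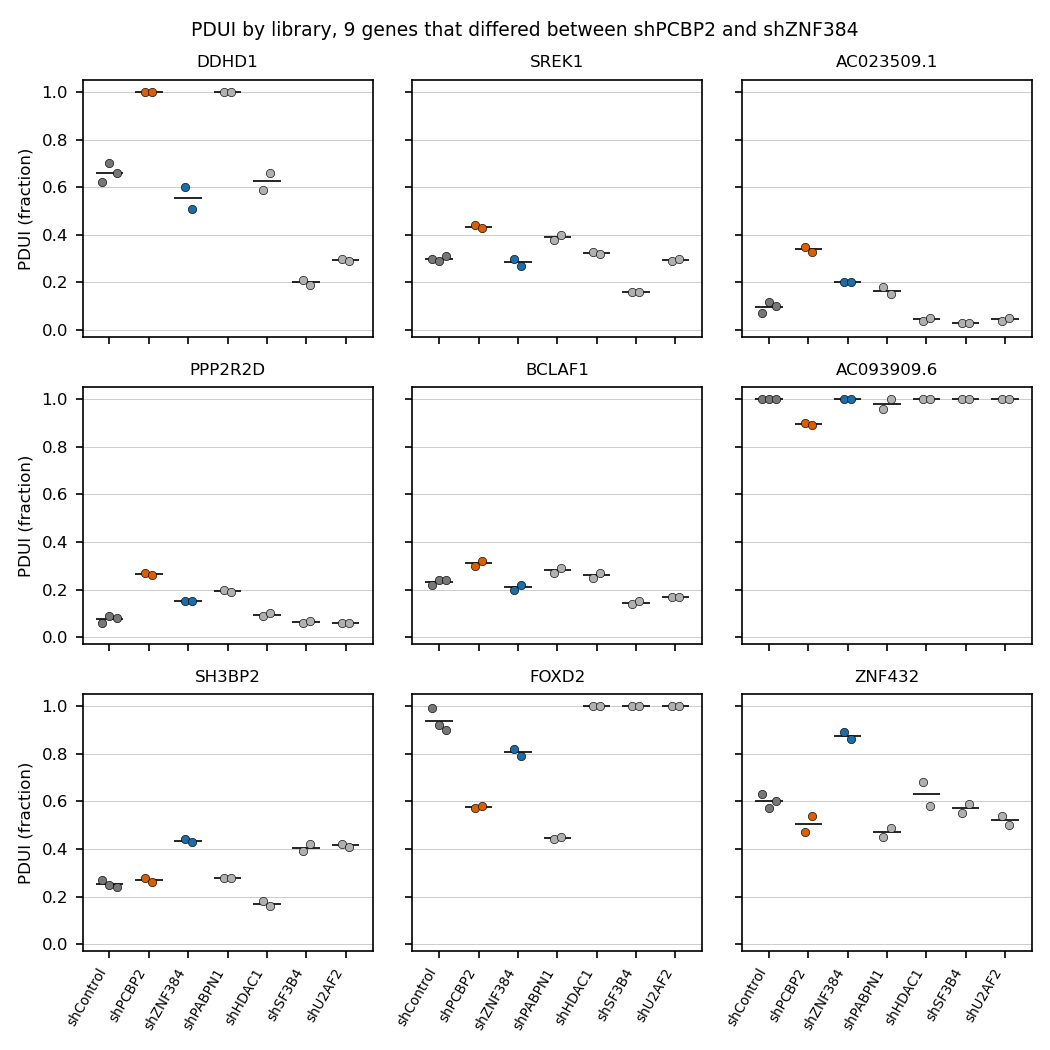
PDUI (vertical axis, fraction) of the 9 called genes in every library, by knockdown or control group (horizontal axis). Each point is a library, bars are group means, and in each panel the 2 shPCBP2 points lie apart from the 2 shZNF384 points.

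The 3' ends of the 4 genes called in every leave-one-out fit are shown because PDUI measures the use of distal ends such as these. Each is the last 30 bases of the listed transcript in GENCODE release 29 on hg38, 5′ to 3′ on the gene's strand, with the poly(A) signal AATAAA or its variant ATTAAA in capitals.
PPP2R2D: agttcAATAAAttttaaatgtttaactgga
SREK1: tttttAATAAAatgaaaatcttaaaatctt
SH3BP2: ATTAAAtctaccatcttattttatgctaca
DDHD1: ATTAAAaaacacaaaagcaatatgtttctc
They lie at chr10:131959805-131959834 on the plus strand, chr5:66183586-66183615 on the plus strand, chr4:2841069-2841098 on the plus strand and chr14:53036745-53036774 on the minus strand. The transcripts of PPP2R2D and SREK1 had another version number in that release than in the deposited table. On the transcript strand, AATAAA was also found in the last 30 bases of FOXD2 and BCLAF1, and neither hexamer in those of AC093909.6, AC023509.1 and ZNF432. Of 12704 transcripts matched, 50.4% held AATAAA, 14.4% ATTAAA and 62.9% at least 1 of them in this window. The proximal sites are not given in the table.

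DDHD1, a phospholipase that acts on phosphatidic acid, had the largest difference of the called genes. Its PDUI was 1 and 1 in shPCBP2, and 0.6 and 0.51 in shZNF384. The difference was 0.445 (SE 0.0416, limma adjusted p = 0.00534). The shControl libraries stood at 0.62, 0.7 and 0.66, close to shZNF384 and far below shPCBP2. Against shControl, the difference was 0.34 in shPCBP2 (limma adjusted p = 0.00616) and −0.105 in shZNF384 (limma adjusted p = 0.266). Both shPABPN1 libraries were also at 1, while shSF3B4 stood at 0.21 and 0.19 and shU2AF2 at 0.3 and 0.29, the lowest of all groups. The last exon (chromosome 14, 53036745 to 53046949) overlaps an exon of AL352979.2 on the opposite strand, and whether the counting used strand is not given in the sources used here.

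SREK1, a splicing regulator related to SR proteins, had a PDUI of 0.44 and 0.43 in shPCBP2 and of 0.3 and 0.27 in shZNF384. The difference was 0.15 (SE 0.0125, limma adjusted p = 0.00412). The shControl values of 0.3, 0.29 and 0.31 overlapped those of shZNF384 and lay below both of shPCBP2. The shPCBP2 libraries were the highest of all 15 for this gene, with shPABPN1 next at 0.38 and 0.4 and shSF3B4 lowest at 0.16 in both. Its annotated last exon spans 66178719 to 66183615 on chromosome 5.

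BCLAF1, a nuclear protein of transcription and RNA processing, showed a smaller difference of the same direction. It stood at 0.3 and 0.32 in shPCBP2, at 0.2 and 0.22 in shZNF384 and at 0.22, 0.24 and 0.24 in shControl. The direct difference was 0.1 (SE 0.0121, limma adjusted p = 0.023). It had the largest adjusted p of the 9 genes, and the next gene, RAN, had an adjusted p of 0.067.

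PPP2R2D, a regulatory B subunit of protein phosphatase 2A, was above control in both knockdowns and higher in shPCBP2. Its PDUI was 0.27 and 0.26 in shPCBP2, 0.15 in both shZNF384 libraries, and 0.06, 0.09 and 0.08 in shControl. The 3 groups did not overlap. The direct difference was 0.115 (SE 0.00919, limma adjusted p = 0.00412). Against shControl, it was 0.188 in shPCBP2 (limma adjusted p = 3.69e-05) and 0.0733 in shZNF384 (limma adjusted p = 0.00761). The shPABPN1 libraries lay between the 2 knockdowns, at 0.2 and 0.19, and the other groups at 0.1 or below. Its annotated last exon spans 131955684 to 131959834 on chromosome 10.

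AC023509.1 followed the same order of groups, with 0.35 and 0.33 in shPCBP2, 0.2 in both shZNF384 libraries, and 0.07, 0.12 and 0.1 in shControl. The direct difference was 0.14 (SE 0.0153, limma adjusted p = 0.0147). Its last exon (chromosome 12, 53467221 to 53467528) overlaps an exon of PCBP2 on the same strand. PCBP2 is the gene targeted in one of the 2 groups, and reads of the 2 genes could not be told apart there. The value of AC023509.1 is therefore uncertain as a measure of its own site choice.

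Among the genes with more distal use in shZNF384, SH3BP2, an adaptor protein of immune and bone cell signalling, stood at 0.28 and 0.26 in shPCBP2 and at 0.44 and 0.43 in shZNF384. The difference was −0.165 (SE 0.0143, limma adjusted p = 0.00412). The shControl libraries, at 0.27, 0.25 and 0.24, were near shPCBP2 and below shZNF384. Against shControl, the difference was 0.0167 in shPCBP2 (limma adjusted p = 0.686) and 0.182 in shZNF384 (limma adjusted p = 0.00122). The shU2AF2 libraries, at 0.42 and 0.41, and the shSF3B4 libraries, at 0.39 and 0.42, were close to shZNF384. Its annotated last exon spans 2833697 to 2841098 on chromosome 4.

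ZNF432, a C2H2 zinc finger gene, had values of 0.47 and 0.54 in shPCBP2 and of 0.89 and 0.86 in shZNF384. The difference was −0.37 (SE 0.0435, limma adjusted p = 0.0203), the largest of the 4 called genes in this direction. The shControl libraries lay between them, at 0.63, 0.57 and 0.6. Against shControl, the difference was −0.095 in shPCBP2 (limma adjusted p = 0.377) and 0.275 in shZNF384 (limma adjusted p = 0.0186). The shZNF384 libraries were the highest of all 15, and the other knockdowns ranged from 0.45 to 0.68. Its annotated last exon spans 52033420 to 52035440 on chromosome 19.

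FOXD2, a forkhead transcription factor, was below control in both knockdowns, and lower in shPCBP2. It stood at 0.57 and 0.58 in shPCBP2, at 0.82 and 0.79 in shZNF384 and at 0.99, 0.92 and 0.9 in shControl. The direct difference was −0.23 (SE 0.0266, limma adjusted p = 0.0198). Against shControl, FOXD2 fell by 0.362 in shPCBP2 (limma adjusted p = 0.000453) and by 0.132 in shZNF384 (limma adjusted p = 0.0388). The shPABPN1 libraries were lower still, at 0.44 and 0.45, while shHDAC1, shSF3B4 and shU2AF2 were at 1 in both libraries. Its annotated last exon spans 47436017 to 47440691 on chromosome 1.

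AC093909.6 was at 1 in both shZNF384 and all 3 shControl libraries and at 0.9 and 0.89 in shPCBP2. The difference was −0.105 (SE 0.00994, limma adjusted p = 0.00534). Of the other knockdown libraries, 1 of shPABPN1 stood at 0.96 and the rest at 1. Most groups had no spread at this upper bound of the scale. The call was lost when genes without spread in any group were left out of the fit, and the calls of BCLAF1 and FOXD2 were lost with it.

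The 2 comparisons with shControl share the control libraries, so their values are set side by side without an overlap. In them, DDHD1, SREK1, BCLAF1 and AC093909.6 were called in shPCBP2 and not in shZNF384, and SH3BP2 and ZNF432 in shZNF384 and not in shPCBP2. PPP2R2D, AC023509.1 and FOXD2 were called in both, each with the larger change in shPCBP2. The other knockdowns were also placed by which of the 2 group means theirs was nearer, a description chosen after the values were seen. The shPABPN1 mean was nearer shPCBP2 in 6 of the 9 genes, against 48.4% of all genes. Means of the other groups were nearer shZNF384 in most of the 9. This held in 8 genes for shSF3B4 and for shU2AF2, with ZNF432 the exception in both, in 7 for shControl and in 6 for shHDAC1. Over all genes, the shares nearer shZNF384 were 44.9%, 42.4%, 41.8% and 42.4%. Ties lower all these shares over all genes, with 1633 of 12312 genes tied for shPABPN1. The 9 genes, chosen for a difference between the 2 means, had 1 tie, for shHDAC1, so the shares are not alike.

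No further gene passed the test, and the genes next in order of p in each direction are given as not called. Each had a limma adjusted p between 0.067 and 0.0767. Those with higher PDUI in shPCBP2 were CELF2, HNRNPC, DCTN5, AGAP1 and DR1. CELF2, an RNA-binding splicing regulator, had 0.34 and 0.33 in shPCBP2, 0.15 and 0.14 in shZNF384 and 0.25, 0.31 and 0.26 in shControl, so that control lay between the knockdowns. HNRNPC, which coats nascent transcripts and binds U-rich RNA, had 0.18 in both shPCBP2 libraries and 0.14 in both shZNF384 libraries, and its shControl values of 0.18, 0.18 and 0.17 were close to shPCBP2. AGAP1, a GTPase-activating protein for Arf, had the widest difference of these, 0.385 (SE 0.0579), from 1 and 0.87 to 0.55 and 0.55. DCTN5, a dynactin subunit, and DR1, a transcriptional repressor, were lower in level, with differences of 0.09 and 0.07. Both had shZNF384 values at or near those of shControl.

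Those with higher PDUI in shZNF384 were RAN, SMC1A, PHF12, ZNF490, AC002350.2 and AC092953.2. RAN, the GTPase of nuclear transport, stood at 0.05 in both shPCBP2, 0.08 in both shZNF384 and 0.06 in all 3 shControl libraries. SMC1A, a cohesin subunit, stood at 0.1 in both shPCBP2 and 0.14 in both shZNF384 libraries. PHF12, a PHD finger protein of a histone deacetylase complex, had 0.26 and 0.34 against 0.51 and 0.49. ZNF490, with 0.65 and 0.6 against 1 and 1, had a value in 1 of the 3 shControl libraries. The last exons of AC002350.2, AC092953.2, ZNF490 and, among the genes above, DCTN5 overlap other genes.

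**Figure D4:**
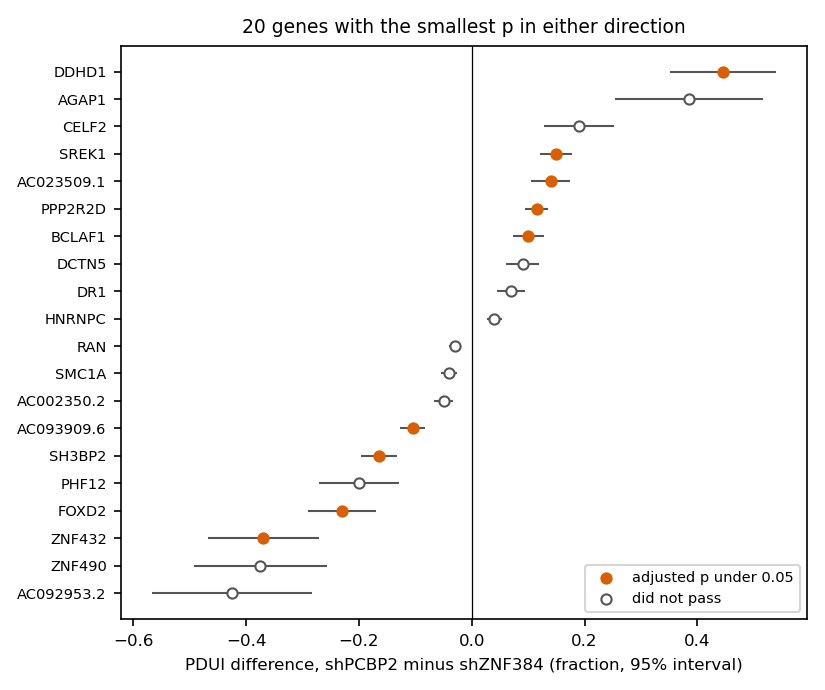
Difference in PDUI, shPCBP2 minus shZNF384 (horizontal axis, fraction), with its 95% limma interval for the 10 genes with the smallest p in each direction (vertical axis), with filled points for called and open points for not called genes. Differences range from −0.425 in AC092953.2 to 0.445 in DDHD1, and some of the smallest, such as that of RAN at −0.03, belong to genes of low PDUI with narrow intervals.

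None of the 6 targeted genes was called in the direct comparison. PCBP2 itself stood at 0.6 and 0.58 in shPCBP2 and at 0.6 and 0.59 in shZNF384, a difference of −0.005 (95% interval −0.0674 to 0.0574). ZNF384 stood at 0.7 and 0.72 in shPCBP2 and at 0.79 in both shZNF384 libraries, a difference of −0.08 (95% interval −0.215 to 0.0546), with no overlap between the libraries. The differences of HDAC1, SF3B4, U2AF2 and PABPN1 lay between −0.015 and 0.05. PDUI gives the choice of site, not the amount of RNA, so these values do not check the knockdowns.

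Gene lists covered the known roles of both proteins and the polyadenylation and splicing machinery. They held 1 called gene, SREK1 among 27 tested SR and SR-related proteins, beside 0.0727% of all genes called. At an unadjusted p under 0.05, the SR list held 1 gene higher and 1 lower in shPCBP2 (7.41%, beside 6.92% of all genes). None was called among 24 cleavage and polyadenylation factors, 33 poly(C)-binding and other KH-domain proteins, 28 hnRNP and ELAV proteins, 26 factors of the U2 snRNP and the 3' splice site, 33 members of HDAC corepressor complexes, 26 members of the microRNA pathway or 26 nuclear RNA decay and export factors. At an unadjusted p under 0.05, these lists held 3, 3, 6, 2, 2, 1 and 2 genes, which is 12.5%, 9.09%, 21.4%, 7.69%, 6.06%, 3.85% and 7.69% of their members beside 6.92% of all genes. The median difference of each lay between −0.015 and 0, beside −0.005 over all genes, and with centred libraries between 0 and 0.015, so these medians give no direction. The share of genes with an interval inside ±0.1, which follows the level of PDUI, ran from 33.3% in the KH-domain list to 73.1% in the U2 snRNP list, and was 28.7% over all genes.

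The lists below are read beside 0.0727% of all genes called and 6.92% at an unadjusted p under 0.05. Iron handling, where poly(C)-binding proteins act as iron chaperones, had none called of 23, with 2 at an unadjusted p under 0.05 (8.70%). Antiviral MAVS and interferon signalling, in which PCBP2 is known to promote the degradation of MAVS, had none called of 24, with 5 at an unadjusted p under 0.05 (20.8%). End joining and double-strand break repair had none of 29, with 4 unadjusted (13.8%), and extracellular matrix and matrix proteases none of 27, with 3 unadjusted (11.1%). Neurodegeneration genes (29), cell cycle genes (39) and oxidative phosphorylation genes (26) also had none, with 4, 3 and 1 unadjusted (13.8%, 7.69% and 3.85%). Among 299 C2H2 zinc finger genes with a ZNF number, ZNF432 was called and 16 had an unadjusted p under 0.05 (5.35%). Families of cytosolic ribosomal proteins (51), mitochondrial ribosomal proteins (67) and solute carriers (199) had no called gene, with 3, 5 and 10 unadjusted (5.88%, 7.46% and 5.03%). Of 21 markers of other cell types, 7 were in the table and none was called. At an unadjusted p under 0.05 there were 3 (42.9%), all lower in shPCBP2, and the median difference of the 7 was −0.06. PDUI gives no expression level by which to judge their presence.

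The mean of both knockdowns was compared with shControl. This mean change can pass the test when only 1 knockdown moved, so a call does not show that both did. SREK1 was called for it (limma adjusted p = 0.0182), with differences from shControl of 0.135 in shPCBP2 and −0.015 in shZNF384. SH3BP2 was also called (limma adjusted p = 0.0047), with 0.0167 in shPCBP2 and 0.182 in shZNF384. Of 12311 genes, 242 were called (1.97%), 229 higher (1.86%) and 13 lower (0.106%) than control. Taken singly, shPCBP2 gave 146 called genes (1.19%), 130 higher (1.06%) and 16 lower (0.13%), and shZNF384 gave 189 (1.54%), 182 higher (1.48%) and 7 lower (0.0569%). The 242 fell to 82 without shControl replicate 1, to 96 without replicate 3 and to 109 to 157 without any 1 of the 4 knockdown libraries. The 146 fell to 46 and 43 without shPCBP2 replicate 1 or 2, and to 58 and 64 without shControl replicate 1 or 3. The 189 fell to 122 and 120 without shPCBP2 replicate 1 or 2, to 36 and 27 without shZNF384 replicate 1 or 2, and to 63 and 39 without shControl replicate 1 or 3. With libraries centred on their medians 2 were left, AC023509.1 and RNFT1-DT, and 212 of the 242 kept their sign. At an unadjusted p under 0.05, the split was 1690 higher and 190 lower as deposited and 490 higher and 1159 lower after centring, so the prevailing direction turned. It turned likewise in shPCBP2, to 439 higher and 676 lower, and in shZNF384, to 406 and 1038. Centring takes the same amount off every gene of a library, also off genes held at 1. Genes that did not move can thereby count as lower, so the turn does not show which direction holds. Calls against control and their direction thus depended on the scaling, and the shControl libraries differ from the knockdowns in the "nuc" suffix as well as in the hairpin.

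Within the 242 genes, the direct difference between the knockdowns had an interval inside ±0.1 in 125 (51.7%), 80 had an unadjusted p under 0.05 (33.1%), and 6 were called. The median of the mean change was 0.1 and the median absolute direct difference 0.035. In 166 of them (68.6%) the direct difference was smaller than 0.5 times the mean change. The genes were chosen by a test of that same mean change, so the choice raises this share and it does not measure likeness. Choosing genes by the test against control favours genes with a small estimated spread, and the same estimate enters the direct test, so these shares are not set against those of all genes.

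The 8 genes with the smallest p for the mean change include 3 that differed directly, PPP2R2D, AC023509.1 and FOXD2, described above. The other 5 all had higher PDUI than control. SC5D, an enzyme of cholesterol synthesis, stood at 0.3 and 0.29 in shPCBP2, at 0.34 and 0.35 in shZNF384 and at 0.2, 0.2 and 0.19 in shControl. The mean rise was 0.123 (SE 0.00609, limma adjusted p = 9.23e-05), and the direct difference −0.05 (limma adjusted p = 0.0767), with no overlap between the knockdowns. HSPA4L, a chaperone of the Hsp110 family, had 0.22 and 0.22, then 0.2 and 0.22, against 0.14, 0.13 and 0.13, with a direct difference of 0.01 (95% interval −0.00603 to 0.026). SMU1, a spliceosome protein, had 0.3 and 0.3, then 0.34 and 0.3, against 0.19, 0.18 and 0.19. In all 3 genes every shPCBP2 and shZNF384 library lay above every control library.

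HNRNPA3, an RNA-binding protein of the hnRNP A family, had 0.38 and 0.4 in shPCBP2, 0.41 and 0.39 in shZNF384 and 0.27 in each control library. Its mean rise was 0.125 (SE 0.0102, limma adjusted p = 0.00133), with a direct difference of −0.01 (95% interval −0.0403 to 0.0203). ZNF207, a zinc finger protein of the mitotic spindle, stood at 0.16 and 0.16, then 0.16 and 0.17, against 0.08, 0.09 and 0.08, and its direct difference was −0.005 (95% interval −0.0249 to 0.0149). For both genes the libraries of the 2 knockdowns overlapped or touched. With centred libraries the mean rise was 0.0842 in HNRNPA3 and 0.0383 in ZNF207, and neither was called (limma adjusted p = 0.214 and 0.317). The rise was not confined to these 2 knockdowns: HNRNPA3 stood at 0.48 and 0.49 in shPABPN1 and at 0.47 and 0.44 in shU2AF2, and SC5D at 0.36 and 0.35, and 0.32 and 0.32.

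**Figure D5:**
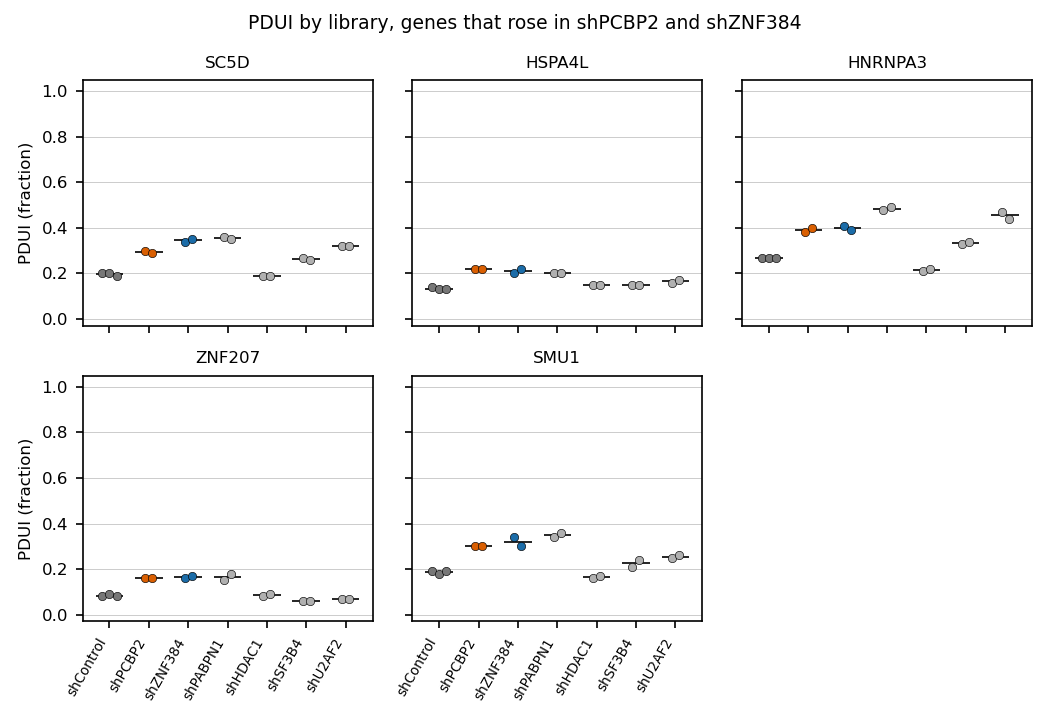
PDUI (vertical axis, fraction) of SC5D, HSPA4L, HNRNPA3, ZNF207 and SMU1 in every library by group (horizontal axis, the same order in each panel). Points are libraries, bars are group means, and in HNRNPA3 the shPCBP2 and shZNF384 points fall together at 0.38 to 0.41, above shControl at 0.27.

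Of 421 distinct list members tested, 17 were called for the mean change (4.04%, beside 1.97% of all genes), 16 higher (3.80%, beside 1.86%) and 1 lower. Of the 17, 5 had a direct unadjusted p under 0.05, beside 6.92% of all genes. The 17 were chosen by a test that uses the same estimated spread, which raises such a count, so it is not read as an excess. MAVS, the mitochondrial adaptor of antiviral signalling, was at 1 in all 4 knockdown libraries and at 0.71, 0.79 and 0.77 in shControl (limma adjusted p = 0.00559 for the mean of both). AGO2, the Argonaute protein that cuts microRNA targets, was likewise at 1 in all 4 and at 0.82, 0.77 and 0.64 in control (limma adjusted p = 0.0182). Values at 1 cannot show a difference between the knockdowns. CPSF6, a subunit of the cleavage factor that favours distal sites, had 0.86 and 1 in shPCBP2, 0.91 and 0.84 in shZNF384 and 0.59, 0.64 and 0.56 in shControl. SRSF7, an SR protein, was the 1 that fell, from 0.3, 0.25 and 0.26 in control to 0.21 and 0.21, and 0.22 and 0.22.

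Some members moved unequally. IFNAR2, an interferon receptor chain, had 0.79 and 0.64 in shPCBP2 and 1 and 0.99 in shZNF384, with control at 0.62, 0.66 and 0.53, and its last exon overlaps 2 other genes. MTREX, the helicase of the nuclear exosome, had 0.17 in both shPCBP2 libraries, 0.1 and 0.12 in shZNF384 and 0.04, 0.07 and 0.05 in control, and its last exon overlaps PLPP1 on the other strand. TMEM106B, a lysosomal protein, had 0.09 and 0.08, then 0.14 and 0.12, against 0.04, 0.04 and 0.05. The direct differences were −0.28, 0.06 and −0.045, and none of IFNAR2, MTREX and TMEM106B was called in the limma test over all genes. SREK1, described above and also among the 17, was called directly, with a difference of 0.15 (limma adjusted p = 0.00412). Its shZNF384 libraries, at 0.3 and 0.27, did not lie above control, at 0.3, 0.29 and 0.31. With centred libraries none of the 17 was called for the mean change. These members were chosen for naming after their values were seen.

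In the comparison of both knockdowns with the other 4, shControl enters only the estimate of the spread. Of 11463 genes with a value in all 12 knockdown libraries, 432 were called (3.77%), 255 with higher PDUI in shPCBP2 and shZNF384 (2.22%) and 177 with lower (1.54%). With centred libraries, where genes held at 1 are shifted too, the counts were 30 and 101, so the split between the directions depended on the scaling. Of the 432, 8 were called in the direct comparison, 108 (25%) had a direct unadjusted p under 0.05 and 263 (60.9%) a direct interval inside ±0.1. Over all 11463 genes these were 9, 801 (6.99%) and 3454 (30.1%). Here too the choice of genes favours a small estimated spread, so the shares among the 432 do not measure likeness. Leaving out 1 of the 4 libraries gave 220 to 298 calls, with 220 without shPCBP2 replicate 2 and 252 without either shZNF384 library.

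SLITRK5, a neuronal transmembrane protein, stood at 0.43 and 0.46 in shPCBP2 and at 0.34 and 0.29 in shZNF384. The other knockdowns ranged from 0.09 in both shSF3B4 libraries to 0.35 in both of shPABPN1, which lay above shZNF384 and below shPCBP2. RPAP2, a phosphatase of the RNA polymerase II tail, was near 0.05 in both knockdowns and in control, and at 0.37 in both shSF3B4 and 0.16 in both shU2AF2 libraries. JMJD6, a lysyl hydroxylase that acts on splicing factors, was at 1 in every library with a value except those of shHDAC1, at 0.8 and 0.81. FAM199X was at 1 in shPCBP2, shZNF384 and shPABPN1, and at 0.78 to 0.86 in the other 3. In the latter 3 genes the contrast came from values of the other knockdowns, and the direct difference between shPCBP2 and shZNF384 was at most 0.005 in size.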

How the data were processed

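The authors deposited 1 table of PDUI values, in the unit fraction, for 13056 transcripts and 15 libraries on genome build hg38, per the submitters' processing notes. Which aligner, site caller and annotation they used, and whether counting used strand, is not given in the sources used here. Values were used as deposited, in limma 3.58.1 under R 4.3.3, with 1 mean per group over 15 libraries, eBayes with a trend, 8 residual degrees of freedom and a prior of 1.06 (2.36 without the 503 genes that had no spread in any group). Tests were two-sided, with Benjamini-Hochberg adjustment over the genes tested. The fit was also run on simulated normal values with neither bounds nor rounding, in which every gene had some spread. That run does not cover genes at the ends of the scale or without spread. Library means were compared by exact permutation tests. Gene ends and overlaps came from GENCODE release 29, where 97.3% of transcripts were found, and 25.3% of the tested genes had a last exon that overlaps another gene.

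The comparison, the gene lists and the alternatives were chosen with earlier results of these data known. Named genes are those called, the next in order of p up to 10 in each direction, the 6 targeted genes, called list members, and those with the smallest p for the mean of both knockdowns against shControl (8) or against the other 4 knockdowns (6). Replicate numbers of shSF3B4 differ between the deposited column names and the labels, and its columns were mapped only to the group. In the list of nuclear RNA decay factors, MPHOSPH6 replaced the symbol MPP6, which names another gene, after values were seen.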

Additional observations from a re-analysis of the deposited data

How the results depend on the processing

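Centring libraries on their medians left 1 gene called between shPCBP2 and shZNF384, 2 for the mean of both against shControl, 131 against the other 4 knockdowns, 4 in shPCBP2 against shControl and 0 in shZNF384 against shControl (1444 at an unadjusted p under 0.05 in limma), and 0 called SR proteins and 0 called ZNF genes. The cause was not tested. On a logit scale 23 genes differed directly, 6 of them among the 9. In a fit of shPCBP2, shZNF384 and shControl alone 2 differed, and with only the 4 libraries, where fewer residual degrees of freedom remain, 0. Without genes of mean PDUI below 0.05 or above 0.95, 2264 genes had an interval within 0.1. Deviations of same-numbered shPCBP2 and shZNF384 libraries correlated across genes at 0.0156, which gives no sign of pairing by replicate number but cannot exclude it. With a replicate block the direct calls were 2 without shSF3B4 and 0 in the 4 libraries alone (989 at an unadjusted p under 0.05 in limma). Leaving out 1 library in turn gave 8 to 23 direct calls, 2825 to 2893 genes with a narrow interval, 82 to 191 calls for the mean of both against shControl, 220 to 298 against the other knockdowns, 43 to 123 for shPCBP2 and 27 to 143 for shZNF384 against shControl. Where a group was left with 1 library, that library was assumed to vary like the others. The 2 alternatives added after seeing the data, genes with spread only and last exons clear of other genes, gave 6 and 7 direct calls, each among the 9. The 9 genes kept their direction in every setting run, which their non-overlapping libraries made all but certain. The narrow-interval count was not run on the logit scale, where a margin of 0.1 in PDUI is not defined. Unknown depth and 2 libraries a group limit the precision.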
